A study of Mus musculus with 2 samples.

Results

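Genes of B cells, of lymphoid follicles and of plasma cells were followed in RNA from the intestinal epithelium of mice. The 39 genes were chosen by name, of 23858 named genes on the array, and were read through 50 probes. They comprise 32 genes of B cells and follicles, here called B cell genes, and 7 genes of plasma cells. Of the 32, 5 were grouped as surface genes that other leukocytes share, and some of the others are not restricted to B cells either. Both groups came from wild type male mice, whose age and number are not given in the labels. The vehicle array (n = 1) holds RNA from segments kept for 2 h with 0.05% DMSO and 0.25% ethanol. The cholic acid array (n = 1) holds RNA from segments kept for 2 h with 0.5 µM cholic acid, a primary bile acid made in the liver. The solvent of cholic acid and the stretch of intestine sampled are not stated, and the title gives the series' interest as bile acid-dependent targets of the nuclear receptor PPARα.

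With 1 array in each group no difference has a replicate check, no p-value can be given, and values are descriptions of these arrays. A probe was called detected where over 50% of its spots carried the scanner software's flag for a signal well above background. Signals are processed intensities in the scanner's units. The cholic acid array was dimmer, with a 75th percentile of 741 against 1060 for vehicle over the probes detected on both, so a gene of equal share gives a raw signal 1.43-fold lower there. Fold values and log2 differences (cholic acid minus vehicle) are after division by that percentile. All 12 enterocyte markers examined, among them the brush border genes Vil1 and Sis, were detected on both arrays.

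B cells recognise antigen through a surface immunoglobulin, which signals into the cell through the paired chains CD79A and CD79B. Naive B cells gather in follicles, which in the small intestine are found as Peyer's patches and as smaller isolated follicles beneath the epithelium. Plasma cells are their secreting descendants. They lie scattered in the lamina propria, have shut down most of the follicular B cell programme, and produce IgA joined by the J chain for export across the epithelium.

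Most B cell genes that both arrays detected were at least 2-fold higher on the cholic acid array, and most plasma cell genes were under 2-fold. Of the 39 members, 27 were detected on both arrays (53.9% of all named genes were), 7 with cholic acid alone (3.13% of all), 0 with vehicle alone (2.48% of all) and 5 on neither (40.4% of all). Among the 27, 15 were at least 2-fold higher with cholic acid, against 6.56% of the 12861 genes detected on both arrays, and 10.1% of the dimmer 6430 of them. The count at least 2-fold lower was 0, where the share of all genes was 2.05%. The 15 ran from 2.03-fold to 17.4-fold and comprised 14 of the 21 B cell genes and 1 of the 6 plasma cell genes. Of these 14, 4 belong to the group of shared surface genes, and some others, such as Cd83, are not restricted to B cells either. The other 7 B cell genes, Cd22, Fcer2a, Blnk, Pax5, Bcl6, Ltb and Cd38, were under 2-fold, with Blnk and Bcl6 below 0. Of the 7 members detected with cholic acid alone, 6 had a bound of at least 2-fold, against 48.9% of all genes of that class. For a bound, the dim side was taken as the probe's own vehicle signal or, if that was lower, as the lowest detected signal of the vehicle array, 14.6. In bulk RNA, fewer cells of a type and less RNA per cell cannot be told apart.

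**Figure D1:**
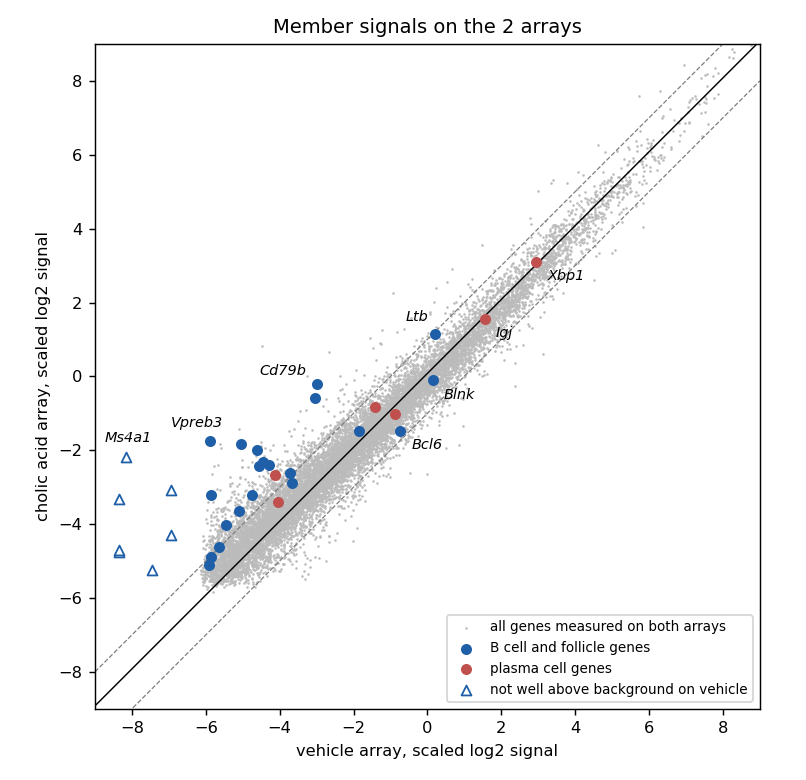
Scaled log2 signal of each gene on the vehicle array (x axis) and on the cholic acid array (y axis). Grey points are the 12861 genes detected on both arrays, blue points B cell and follicle genes, red points plasma cell genes, and open triangles the 7 members detected with cholic acid alone. The solid line is the median difference of all genes (0.08) and the dashed lines mark 2-fold. Most blue points lie above the upper dashed line at the dim end, while Igj and Xbp1 lie near the solid line among brighter genes.

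Genes of the B cell antigen receptor and its surface partners had the largest median log2 difference of the role groups with at least 3 genes detected on both arrays, 2.14 over 7 genes. Vpreb3, a protein that assists assembly of the receptor's light chain inside B lineage cells, had a signal of 18 ± 3.84 on vehicle and 219 ± 22.2 with cholic acid, where the error is the scanner software's own estimate for 1 spot. It was 17.4-fold higher (log2 difference 4.12), and only 1 of the 12861 genes had a larger difference. The spread of differences among the 1000 genes nearest in signal, as a robust SD, was 0.54. The vehicle signal lay close to the lowest detected signal of 14.6, so the size of this fold rests on a dim value. Cd79b, one of the signalling chains, had signals of 134 (vehicle) and 640 (cholic acid) and was 6.83-fold higher, against a spread of 0.43. Its partner Cd79a was 2.91-fold higher by the mean of a pair of probes that differed in size. The brighter had signals of 55.6 and 175 (4.50-fold) and the dimmer 27.7 and 36.3 (1.87-fold).

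The probe of Vpreb3 lies on chromosome 10 from 75412326 to 75412385, that of Cd79b on chromosome 11 from 106172780 to 106172839, and the brighter probe of Cd79a on chromosome 7 from 25686823 to 25686882, in mm9 coordinates per the file headers. No exon or UTR annotation of that build was used here.

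Cr2, the complement receptor CD21 of mature B cells and follicular dendritic cells, had signals of 18.4 and 80.5 and was 6.26-fold higher. The vehicle signal was again close to 14.6, and the log2 difference of 2.65 was 1.25 with normexp background correction. The second probe of Cr2 was detected with cholic acid alone, at 3.10 and 32.9, a bound of at least 3.22-fold in the same direction. Cd72, an inhibitory partner of the receptor, was 4.41-fold higher, and its overlapping probes were 5.23-fold and 3.71-fold higher. Both genes were thus higher on every probe that was detected.

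Ms4a1, which encodes CD20, the surface protein that defines B cells in most staining panels, was below detection with vehicle at 3.73 and had a signal of 164 with cholic acid. It was at least 16.1-fold higher, the largest bound among the members. Faim3, the Fc receptor for IgM (now Fcmr), went from 3.25 to 73.8, at least 7.23-fold higher. Fcrla, an intracellular Fc receptor-like protein of B cells, had signals of 3.28 and 27.3, at least 2.67-fold higher. The low values on vehicle are near the surrogate that the software gives to dim spots, so they set no level. Cd22, a sialic acid-binding inhibitory receptor, differed by 0.77 on the log2 scale from signals of 83.5 and 99.4. Fcer2a, the low-affinity IgE receptor CD23 of follicular B cells, differed by 0.99 from dim signals of 18.1 and 25.2, just under 2-fold. Fcrl1 was not detected on either side, at 3.24 and 5.37. Of the 11 genes of this group, 5 were at least 2-fold higher, 3 had such a bound, 2 were under 2-fold and 1 was not detected.

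**Figure D2:**
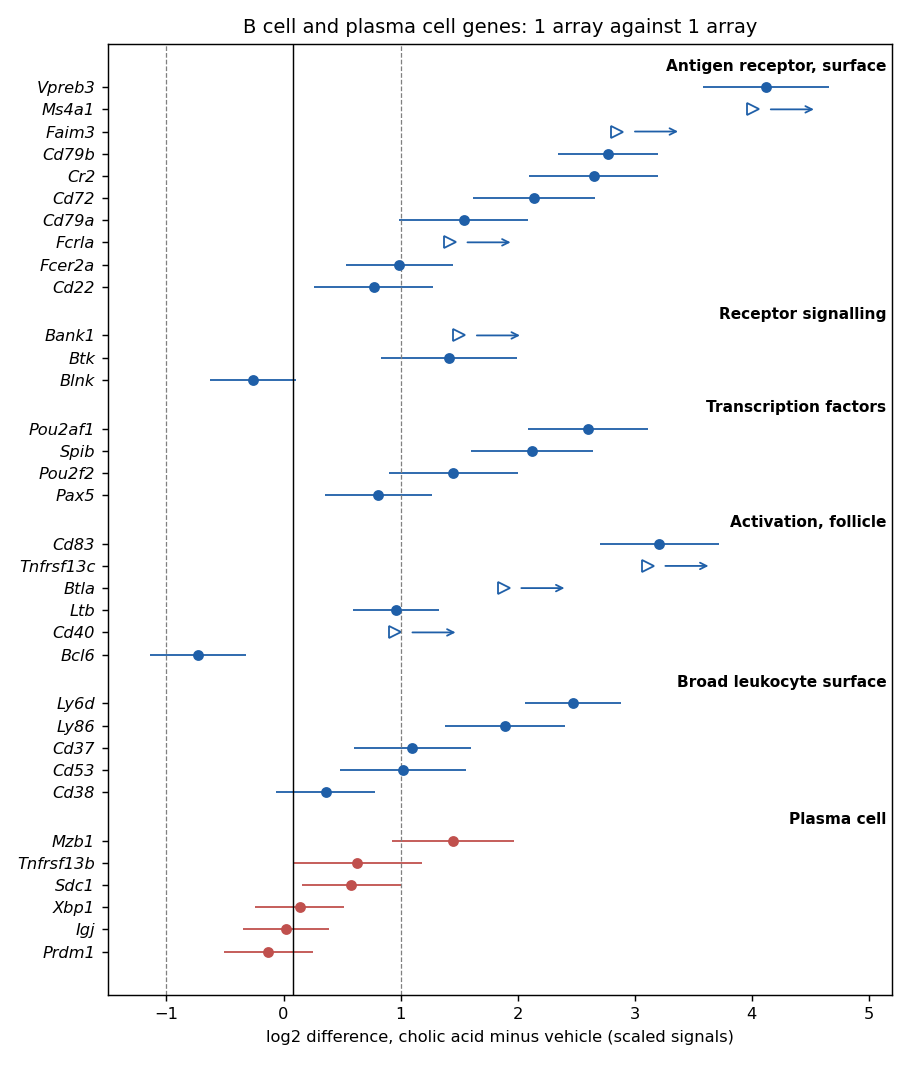
Log2 difference, cholic acid minus vehicle, of the 34 members detected on at least 1 array, ordered by role. Filled points are genes detected on both arrays with bars of 1 robust SD of the 1000 genes nearest in signal, a yardstick from these arrays and not a replicate error. Open triangles with arrows are lower bounds for genes detected with cholic acid alone, and the lines mark the median of all genes and 2-fold. Vpreb3, Ms4a1 and Cd83 lie farthest to the right, whereas 5 of the 6 plasma cell genes lie under 2-fold.

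Among the kinases and adaptors that carry the receptor's signal, Btk, the tyrosine kinase mutated in X-linked agammaglobulinaemia, had signals of 24.5 and 45.5 and was 2.66-fold higher. Its other probe was not detected on either array. Bank1, a scaffold protein of B cells, was detected with cholic acid alone by each of its probes, at 35.4 and 23.4 against 3.02 and 3.44 with vehicle. The bounds were at least 3.47-fold and 2.29-fold. Blk, a Src family kinase, had signals of 3.88 and 18.2 and was not called detected. Blnk, the adaptor that links the receptor to phospholipase C, was bright on both arrays and went the other way, with 1180 on vehicle and 687 with cholic acid (log2 difference -0.26, spread 0.37). It was thus higher in raw signal with vehicle but differed by less than the spread of its neighbours after scaling.

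Of the 4 transcription factors of the B lineage that were detected, 3 were at least 2-fold higher and Pax5 was not. Pou2af1, the coactivator OCA-B that docks on octamer-binding factors, had signals of 43.7 and 185 and was 6.06-fold higher. Spib, an Ets factor of B cells that M cells of the follicle epithelium also make, had signals of 48.3 and 147 and was 4.35-fold higher. Pou2f2, the octamer-binding factor OCT2, was 2.74-fold higher on its detected probe, from 30.8 to 59.0, and its other probe was undetected at 10.9 and 9.39. Pax5, the factor that holds B cell identity, was just above detection on 1 probe, at 17.5 and 21.5 (log2 difference 0.81, under 2-fold, and -0.08 with spike-in probes as the reference), and its other probe, at 3.21 and 3.0, was not detected. Ebf1, which acts upstream of Pax5, was not detected, at 3.64 and 4.65. The data on the earliest identity factors are therefore at the limit of the array.

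Promoter sequences from RefSeq (GRCm38.p6) were searched because OCA-B, OCT2 and EBF1 are themselves members. For 32 of the 39 members an entry was matched by symbol. Blk, Cd40, Cd79b, Cd83, Ly6d, Ms4a1 and Mzb1 were not matched. In the 250 bases before the start, on both strands, the octamer ATGCAAAT was found in 2 members, Vpreb3 and Blnk (6.25% of the 32), and in 1.81% of the 27025 mouse genes with an entry, which is 1.6% of 32851 single promoters. The EBF1 palindrome, TCCC and GGGA with any 2 bases between them, was found in 1 member, Cd22 (3.12%), and in 0.914% of genes or 0.779% of promoters. The motifs do not overlap each other in these windows. The 3 sequences are shown because they set the member with the largest difference beside 2 that were under 2-fold. Capitals mark the motif, and the octamer reads here as its reverse complement, ATTTGCAT.
Vpreb3, chr10:75948050-75948299, plus strand: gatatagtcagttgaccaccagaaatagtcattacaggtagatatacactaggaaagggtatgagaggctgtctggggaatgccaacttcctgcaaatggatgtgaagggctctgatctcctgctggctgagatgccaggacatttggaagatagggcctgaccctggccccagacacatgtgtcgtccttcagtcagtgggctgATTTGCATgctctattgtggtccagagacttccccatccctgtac
Blnk, chr19:40994222-40994471, minus strand: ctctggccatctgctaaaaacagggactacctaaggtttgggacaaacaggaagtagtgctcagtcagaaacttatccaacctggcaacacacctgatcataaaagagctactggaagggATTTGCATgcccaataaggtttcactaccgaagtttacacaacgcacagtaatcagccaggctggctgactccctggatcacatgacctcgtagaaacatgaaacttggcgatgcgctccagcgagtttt
Cd22, chr7:30879029-30879278, minus strand: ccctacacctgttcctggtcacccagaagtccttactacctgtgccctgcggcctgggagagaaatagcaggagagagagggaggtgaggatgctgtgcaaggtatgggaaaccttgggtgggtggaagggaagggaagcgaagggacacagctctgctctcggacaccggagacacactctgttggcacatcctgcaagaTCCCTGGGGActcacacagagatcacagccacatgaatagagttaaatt

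The first base of the motif lies 45 bases before the start in Vpreb3, 130 in Blnk and 49 in Cd22. The octamer thus stands before a gene that was 17.4-fold higher and before Blnk, which differed by -0.26. A match of letters is a description and shows no binding.

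Genes of B cell activation and of follicle organisation were mixed. Cd83, an activation marker of B cells and mature dendritic cells, had signals of 32.1 and 208 and was 9.27-fold higher, against a spread of 0.51. Tnfrsf13c, the BAFF receptor that keeps naive B cells alive, went from 8.69 to 88.1 on the probe that was detected with cholic acid, at least 8.63-fold higher. Its other probe was undetected at 11.6 and 7.12. Btla, an inhibitory receptor of B and T cells, was at least 3.67-fold higher, from 8.62 to 37.5. Cd40, the receptor for T cell help, was detected with cholic acid alone at 19.7 against 6.0, a bound of 1.93-fold.

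The lymphotoxin genes, whose products build and maintain follicles, stood on either side of detection. Ltb was bright, with 1220 on vehicle and 1660 with cholic acid, and differed by 0.96 on the log2 scale against a spread of 0.37. Lta was printed in 10 spots, of which 0 passed the flag on vehicle and 4 with cholic acid. Its spots had a lowest, median and highest signal of 3.06, 7.37 and 15.9 on vehicle and of 10.1, 14.8 and 21.6 with cholic acid, so they overlapped. Bcl6, the repressor that directs germinal centre B cells and is also made outside them, was lower, from 638 to 268 (log2 difference -0.73, spread 0.41), and of the 27 members it had the lowest difference.

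Most of the genes grouped as surface genes that other leukocytes share were at least 2-fold higher too. Ly6d, which marks B lineage commitment and is also made by some epithelia, had signals of 128 and 496 and was 5.54-fold higher. Ly86 (MD-1), the partner of the B cell receptor RP105, had 54.2 and 140 and was 3.70-fold higher. The tetraspanins Cd37 and Cd53 were 2.14-fold and 2.03-fold higher, with the brighter probe of Cd37 at 222 and 375 and Cd53 at a dim 21.2 and 30.1. Under 10 alternatives of processing, Cd37 was at least 2-fold higher in 4 and Cd53 in 3. Cd38, an ectoenzyme of many leukocytes, differed by 0.36 from signals of 294 and 264. In this group 4 of 5 were at least 2-fold higher.

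Of the plasma cell genes, Mzb1 alone was at least 2-fold higher as the mean of its probes. Igj (now Jchain), which joins IgA and IgM into polymers, had signals of 3100 ± 310 on vehicle and 2190 ± 219 with cholic acid and differed by 0.02 after scaling, against a spread of 0.37. Xbp1, the secretory pathway factor that gut epithelium also makes, had 8210 and 6320 (log2 difference 0.14). Prdm1, or Blimp-1, which ends the B cell programme and is also made in enterocytes, had 576 and 367 (-0.13). Sdc1, the plasma cell antigen CD138 that epithelia also carry, had 399 and 417 (0.58, spread 0.42). These 4 were thus between -0.13 and 0.58.

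Tnfrsf13b, the receptor TACI of B cells and plasma cells, had probes that disagreed. One went from 77.2 to 133 (2.46-fold higher), another from 53.4 to 36.4 (log2 difference -0.04), and the third was not detected, so its mean of 0.63 describes neither. Tnfrsf17, the plasma cell survival receptor BCMA, was not detected, at 5.38 and 11.2.

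Mzb1, a chaperone of antibody assembly in plasma cells and marginal zone B cells, was the exception in this group, at 2.73-fold higher. It was listed under an older clone name and was printed in 10 spots. They ran from 54.1 to 71.8 with a median of 62.2 on vehicle, and had a median of 112 and a highest signal of 137 with cholic acid, where each spot was brighter than the brightest vehicle spot. The SD over spots was 0.13 and 0.12 on the log2 scale, so the difference was large beside the scatter of spots. That scatter measures printing and scanning on 1 array, not the spread between animals.

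**Figure D3:**
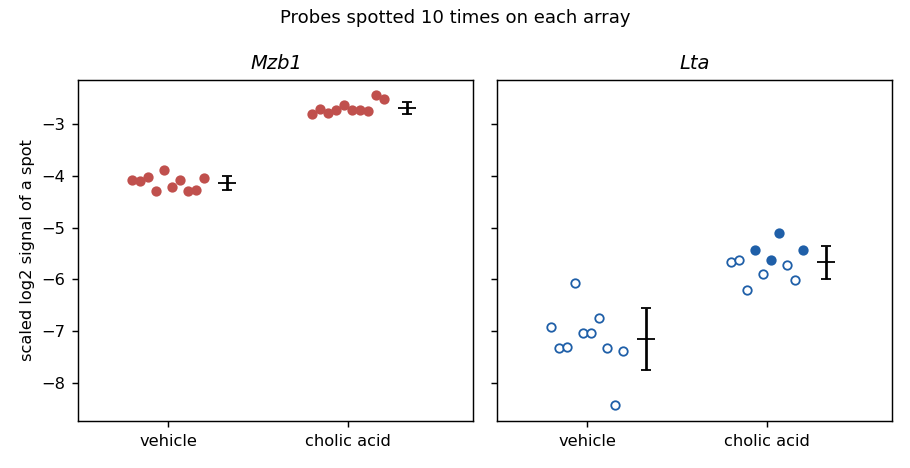
Scaled log2 signal of every spot of the probes of Mzb1 (left) and Lta (right), which were printed 10 times on each array. Filled points carry the flag for a signal well above background, open points do not, and the black bars are the mean and SD over spots. The Mzb1 spots of the arrays are apart, with means of -4.12 and -2.67, whereas 4 of 10 Lta spots passed the flag with cholic acid and 0 of 10 with vehicle.

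Set side by side, the 21 B cell genes detected on both arrays had a median log2 difference of 1.45 and the 6 plasma cell genes one of 0.36, where all 12861 genes had 0.08. The medians were 1.09 apart, a ratio of 2.14-fold, and this gap does not depend on how the arrays are scaled to each other as long as 1 factor is used per array. With the 7 one-sided B cell genes entered at their bounds, the B cell median was 1.52 over 28 genes. Those 7 were detected only on the cholic acid array, where they are high, and no plasma cell gene entered this way. The value of 1.52 is therefore no separate support for the gap. Of the 21 B cell genes 19 lay above the median of all genes, the exceptions being Blnk and Bcl6, and of the 6 plasma cell genes 4 did. The 15 members at least 2-fold higher were dim, with vehicle signals from 18 to 134. The brighter members were all under 2-fold in both classes: the B cell genes Cd38, Bcl6, Blnk and Ltb, with vehicle signals of 294 or more, and the plasma cell genes Sdc1, Prdm1, Igj and Xbp1, with 399 or more. The part of signal level in the difference between the classes was not tested. Without Xbp1, Sdc1 and Prdm1, which epithelium also makes, 3 plasma cell genes remained, Igj at 0.02, Tnfrsf13b at 0.63 and Mzb1 at 1.45, with a gap of 0.82. That gap rests on Tnfrsf13b, whose probes disagreed: with the brightest probe of each gene it was at 1.30 and the gap was 0.15, an alternative chosen after seeing the data. With spike-in probes as the reference all genes shifted by -0.89, so the B cell median was 0.56 and the plasma cell median -0.53.

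Further genes of B lineage cells that are not among the 39 were taken from a list of 52. Of these 51 were on the array and 33 detected on both, with a median of 0.79. Among the 33, 13 were at least 2-fold higher (6.56% of all genes were) and 0 at least 2-fold lower (2.05% of all). The brightest, Plac8 (log2 difference 0.12), Fcrl5 (-0.32), Irf8 (0.13) and Cd81 (-0.67), were under 2-fold, and 6 of the 33 were below 0. Another 10 were detected with cholic acid alone (3.13% of all named genes were). Of these, 8 had a bound of at least 2-fold, against 48.9% of all genes of that class. Ccr7, the receptor that guides lymphocytes to lymphoid tissue, was at least 11.1-fold higher, from 5.29 to 113. Siglecg, an inhibitory lectin of B cells, was at least 3.95-fold higher.

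Cxcr5, which draws B cells into follicles, was 4.36-fold higher from a dim 16.7 to 50.9. Ccr6, which B cells of the gut follicle use, was 4.04-fold higher, Bcl2 3.38-fold and Prkcb, the kinase downstream of BTK, 3.10-fold. Cxcl13, the follicle chemokine read by CXCR5, was not detected with vehicle at 3.15 and had 18.3 with cholic acid, a bound of 1.79-fold. Ccr10, a homing receptor of IgA plasma cells, differed by 0.25, and Irf4, a factor of plasma cells and activated lymphocytes, was detected with cholic acid alone, at least 2.55-fold higher. The recombinase genes Rag1 and Rag2 were not detected.

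Of 8 immunoglobulin genes found by name, 4 were detected on both arrays, with a median of 0.27. The name search did not cover the heavy chain constant genes, so the 8 say nothing about them. The variable gene Ighv14-2 was 13.7-fold higher, from 21.7 to 208. Igh-VJ558 went from 231 to 135 (log2 difference -0.26), and the probe named Igkc was not detected. Variable gene probes can share sequence with related segments, so these values are uncertain.

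Markers of other leukocytes differed between lists. All 8 pan-leukocyte genes were detected on both arrays and 7 were at least 2-fold higher, with a median of 1.21 and a range of 0.79 to 1.42. Their summed signal was 8980 on vehicle and 21300 with cholic acid on the vehicle scale. All 15 T cell genes were detected and 7 were at least 2-fold higher, with a median of 0.87 and a summed signal of 25800 and 31900. The exception below 0 was Cd4 (-0.71), the brightest of the 15, with raw signals of 13200 and 5650 from 1 of its 2 probes. Cd4 weighs heavily in the T cell sum, which therefore understates the difference of the other T cell genes. Of 14 myeloid and dendritic genes on the array, 6 were detected on both, with a median of 0.34 and summed signals of 3080 and 3230, and 2 of them were at least 2-fold higher, the dendritic cell genes Zbtb46 (2.49-fold) and Itgax (2.09-fold). Cd14 (-0.46) and Itgam (-0.11) were below 0. With cholic acid alone, Flt3 was at least 3.30-fold and Lyz2 at least 2.74-fold higher. Adgre1 was detected with vehicle alone, with a bound of 1.31-fold, and S100a8, S100a9, Fcgr1, Fcgr3 and Cd209a were not detected.

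Genes listed for follicular dendritic cells and lymphoid stroma, not all of them specific to these cells, had a median of 0.89 over 5. Of these, Clu was 4.38-fold and Mfge8 2.29-fold higher. Madcam1 (log2 difference 0.89), Tnfrsf11a (0.70) and Ccl19 (0.02) were under 2-fold, and Vcam1 was not detected. Markers of the follicle-associated epithelium had a median of 0.59 over 6. Among them Marcksl1 was 3.47-fold and Tnfaip2 2.36-fold higher. Anxa5 (0.49), Scg5 (0.29), Ccl9 (0.02) and Tnfrsf11a, which is in both lists, were under 2-fold. The M cell receptor Gp2 was detected with cholic acid alone, at 20.4 against 6.94, a bound of 2.00-fold, and Ccl20 and Umod were not detected. Enterocyte genes had a median of -0.35 over 12, with 9 below 0 and Apoa4 3.45-fold lower, and goblet and Paneth genes one of 0.05 over 9. The part of these cell types in the differences of the B cell genes was not tested, and treatment cannot be told apart from the segment sampled.

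**Figure D4:**
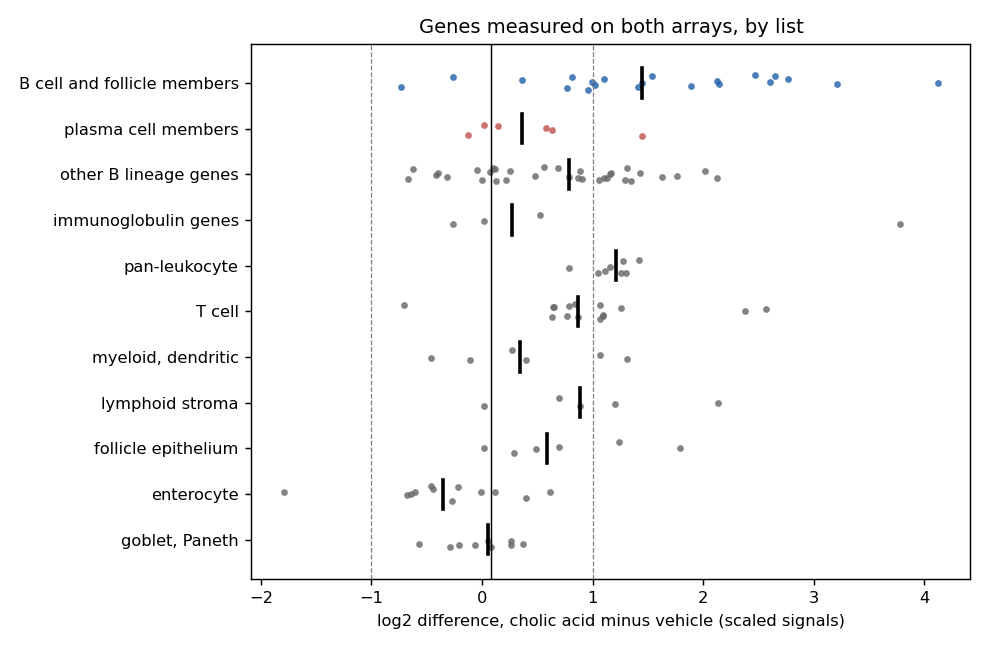
Log2 difference, cholic acid minus vehicle, of each gene detected on both arrays (points), by list, with the list median as a black bar. The thin line is the median of all genes (0.08) and the dashed lines mark 2-fold. The medians run from 1.45 for B cell and follicle members and 1.21 for pan-leukocyte genes to 0.36 for plasma cell members and -0.35 for enterocyte genes.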

How the data were processed

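RNA of each group was measured on 1 one-colour Agilent array of design 028005. Per the file headers, the authors' Feature Extraction software (version 10.7.1.1 in the headers, 9.5.1.1 in the submitters' processing notes) made the deposited intensity values by background subtraction and detrending within the array, with a surrogate for dim spots. The other deposited columns used hold flags and an error estimate. The authors also deposited processed intensities whose sorted columns lay within 0.024% of each other, on a linear scale and with a median of 10.09 on each array. Against the scanner signal their log2 values gave r = 0.9999 and 0.9998 across probes. Their direction follows the column names, and their centring is not stated.

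Flagged outlier spots were left out (124 on vehicle, 119 on cholic acid), and 0 spots were saturated. A probe's value is the mean log2 signal of its spots, from which the 75th percentile over the 22612 probes detected on both arrays was subtracted. A gene is the mean of its probes detected on both. Names came from accessions matched without versions to a RefSeq table (27325 probes), then by symbol (3523) or synonym (546), or stayed as in the files (1588), and 22699 probes stayed unnamed. Members were matched by the name in the files. Depth is limited by the number of arrays. No test was computed, and the code was tested on simulated data. Python 3.11.15 and limma 3.58.1 were used.

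The members and lists were chosen with earlier results of these data known. All members were named, and of the other lists at most 4 genes per direction and kind of value by size; some genes that this rule names are not reported here. Further genes named from those lists (Cxcl13, Ccr10, Irf4, Rag1, Rag2, Igh-VJ558, Igkc, Cd4, Vcam1, Gp2, the myeloid genes below 0, undetected or seen with vehicle alone, and the enterocyte examples) were chosen after their values were seen. The lymphoid stroma and follicle epithelium genes under 2-fold or undetected, and the brightest further B lineage genes, were also named after their values were seen. Alternatives were other scalings, background correction, filters, probe rules and fold limits.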

Additional observations from a re-analysis of the deposited data

How the results depend on the processing

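The 15 members at least 2-fold higher kept their sign under all 10 alternatives of scaling, background, filter and probes, and 8 (Cd79b, Cd72, Cr2, Vpreb3, Spib, Pou2af1, Cd83 and Ly6d) stayed at least 2-fold higher in each. For a gene whose only probe was detected on both arrays, the filter and probe alternatives could not change the value. With spike-in probes as the reference 8 were higher and 3 lower (Blnk, Bcl6 and Prdm1) of the 27. The shares of all genes in that setting were 0.84% higher and 33.5% lower, so the 3 do not stand out. Without a filter on dim probes 24 of 39 were higher, as more members enter. In that setting 12.3% of all genes were higher and their median was 0.40. A 3-fold limit left 9, and a 1.5-fold limit gave 1 lower gene, Bcl6. The shares of all genes at these limits were not computed, so these counts have no background beside them. The gap between the B cell and plasma cell medians was 0.60 with normexp, whose offset shrinks dim genes, 0.15 with the brightest probe per gene and without Xbp1, Sdc1 and Prdm1 (chosen after seeing the data), and 0.82 to 1.28 otherwise, above 0 in every setting run. Higher genes made up 76.2% of all 2-fold calls, but 2.45% with the spike-ins, 44.2% with the percentile of all probes, 51.4% after quantile normalization or in the authors' values, 58.3% after loess and 65.8% after median centring. No paired analysis was possible because each group has 1 sample, and for the same reason no sample could be left out. Dim signals limit Pax5, Ebf1, Blk, Fcrl1, Lta and Tnfrsf17, which lay at or below detection.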
